A study of Mus musculus with 4 samples.

Results

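Cytosolic ribosomal protein genes were read on 4 arrays of mouse heart RNA. Members were the genes whose symbol starts with Rpl or Rps followed by a digit, together with Rpsa and the stalk genes Rplp0 and Rplp1. Of 75 such symbols, 6 kinases of the Rps6k family and 1 symbol with a pseudogene suffix were left out, which left 68 of the 19505 genes measured. They comprised 31 genes of the large subunit, 22 of the small subunit, 2 of the stalk, 12 copies of ribosomal protein genes and Rps19bp1, which encodes a protein that binds a ribosomal protein and is not one itself. The ribosome translates messages into protein with a large and a small subunit, each built of ribosomal RNA and many proteins present in single copies. In most tissues the messages of these proteins are abundant and start with a run of pyrimidines, the TOP sequence, through which mTOR signalling controls their translation. Striated muscle is known for a paralogue, Rpl3l, whose protein can take the place of Rpl3 in the large subunit.

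The hearts came from mice of the ICR (Jcl:ICR) stock that had been injected on postnatal day 1 with PBS or with a viral vector carrying Tbx6. They were collected 7 or 30 days later, with 1 array for each of the 4 groups (PBS and Tbx6 at either day). The labels name the skin of the back as the site of injection in 1 field and the heart in others. The sources used here do not give the vector's promoter, the number of hearts behind each RNA or their sex, and the control carried no vector. The days were therefore compared over both injections, with 2 arrays per day. What the model calls error is how far the day change differed between the injections, pooled with the variance of other genes, and nothing in it measures the spread between hearts of 1 group.

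Values are log2 expression values, so a difference of 1 is a change of 2-fold. The 9 markers of heart muscle, among them Myh6 and Tnnt2, read 15.98 (Ryr2) or higher on every array, and the 10 markers of fast skeletal muscle were at background on every array. A reading is called at background when the brightest background probe set on the same array reaches or exceeds it (5.77 to 6.05). The PBS array of day 7 stood apart by 2 airway genes, Scgb1a1 and Scgb3a1, which were above background on that array alone. It also had the highest readings of Ucp1, the uncoupling protein of brown fat (11.92, against 5.69 to 8.34 elsewhere), and of the erythroid gene Alas2 (12.52, against 9.24 to 10.73). Of the 68 members, 3 were at background on all arrays (the copies Rpl10l, Rpl39l and Rps23rg1), 1 on a single array (Rps19bp1), and 0 reached the highest value in the table. The 65 others passed the filter on low values (a mean of at least 5.30) and entered the test, and the 55 members of the canonical subunits and stalk all did so. The sources used here do not say whether probe sets tell genes from their processed copies, so values of close copies are uncertain.

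The start sites of some members are shown because the TOP sequence begins at the start of the message. RefSeq promoters (GRCm38.p6) were found for 55 of the 68 members. Each line holds 30 bases before and 20 bases from the start on, 5′ to 3′ on the gene's strand, with runs of at least 8 pyrimidines in capitals. Capitals mark a run wherever it lay in the window, and the run of Rpl31 lies wholly before the start. Rpl14, Rpl31 and Rps26 fell between the days, Rpl28, Rpl35 and Rps6 did not pass the test, and Rpl3l rose.
Rpl14, chr9:120571487-120571536, plus strand: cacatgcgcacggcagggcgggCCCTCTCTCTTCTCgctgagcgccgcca
Rpl31, chr1:39367821-39367870, plus strand: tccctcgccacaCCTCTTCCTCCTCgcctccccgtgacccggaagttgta
Rps26, chr10:128626487-128626536, minus strand: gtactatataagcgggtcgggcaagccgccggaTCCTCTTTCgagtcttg
Rpl28, chr7:4792935-4792984, plus strand: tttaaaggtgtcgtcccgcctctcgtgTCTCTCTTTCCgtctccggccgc
Rpl35, chr2:39005112-39005161, minus strand: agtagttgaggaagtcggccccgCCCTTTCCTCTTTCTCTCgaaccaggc
Rps6, chr4:86857348-86857397, minus strand: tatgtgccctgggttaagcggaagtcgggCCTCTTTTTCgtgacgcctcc
Rpl3l, chr17:24727796-24727845, plus strand: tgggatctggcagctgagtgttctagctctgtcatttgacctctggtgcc

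A run of at least 8 pyrimidines lay in this window at 1 or more starts of 26 of the 55 members (47.3%), against 22.6% of 17491 protein-coding genes with a promoter in the table. It was found in 5 of the 15 members that fell and in 19 of the 36 that did not pass the test, and in neither of the starts listed for Rpl3l. Runs that lay before the start were counted too, so these are not counts of TOP sequences. The letters CGGAAG, the core bound by ETS factors such as GABP, were sought on both strands of the 300 bases around each start. They were present for 33 of the 55 members (60.0%) and for 23.5% of the protein-coding genes, and may overlap a pyrimidine run on the other strand. The share was 66.7% among the members that fell and 61.1% among those that did not pass the test. Rpl3l held the letters AGGTCA, a half-site of nuclear receptors, which were present for 10.9% of the members and 16.7% of the protein-coding genes. These are matches of letters, not measured binding.

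Between 7 and 30 days after injection, more of the ribosomal protein genes fell than rose, and Rpl3l was the 1 that rose. Of the 65 tested members 18 fell (27.7%), 1 rose (1.54%) and 46 did not pass the test, while 12.1% of the 9753 tested genes fell and 14.2% rose. The test was limma's additive model of injection and day on all 4 arrays with Benjamini-Hochberg adjustment over the 9753 genes. The median change over the 65 members was -0.55, with quartiles of -0.83 and -0.17, beside a median of -0.02 over all tested genes. The mean difference was below 0 for 55 members (84.6%, against 51.0% of tested genes). Both arrays of day 30 lay below both arrays of day 7 for 45 members (69.2%, against 33.5% of tested genes) and above them for 3 (background 32.7%). The median was -0.35 between the PBS arrays and -0.72 between the Tbx6 arrays. With day as the only term in the model 26.2% of the members fell (12.1% of all tested genes). Fits that left out 1 array also had day as their only term. They set 1 array of a day against 2 of the other, so differences between injections entered the day change and its error. The number of calls leaned on single arrays, and most on the Tbx6 array of day 30: without it 2 of 65 members fell (3.08%, against 5.69% of all tested genes), with a median change of -0.39. Without the Tbx6 array of day 7 it was 8 members (12.3%), near the 10.1% of all tested genes. It was 9 (13.8%, against 6.37%) without the PBS array of day 30, and 14 (21.5%, against 9.28%) without the PBS array of day 7, the array that holds airway genes.

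**Figure D1:**
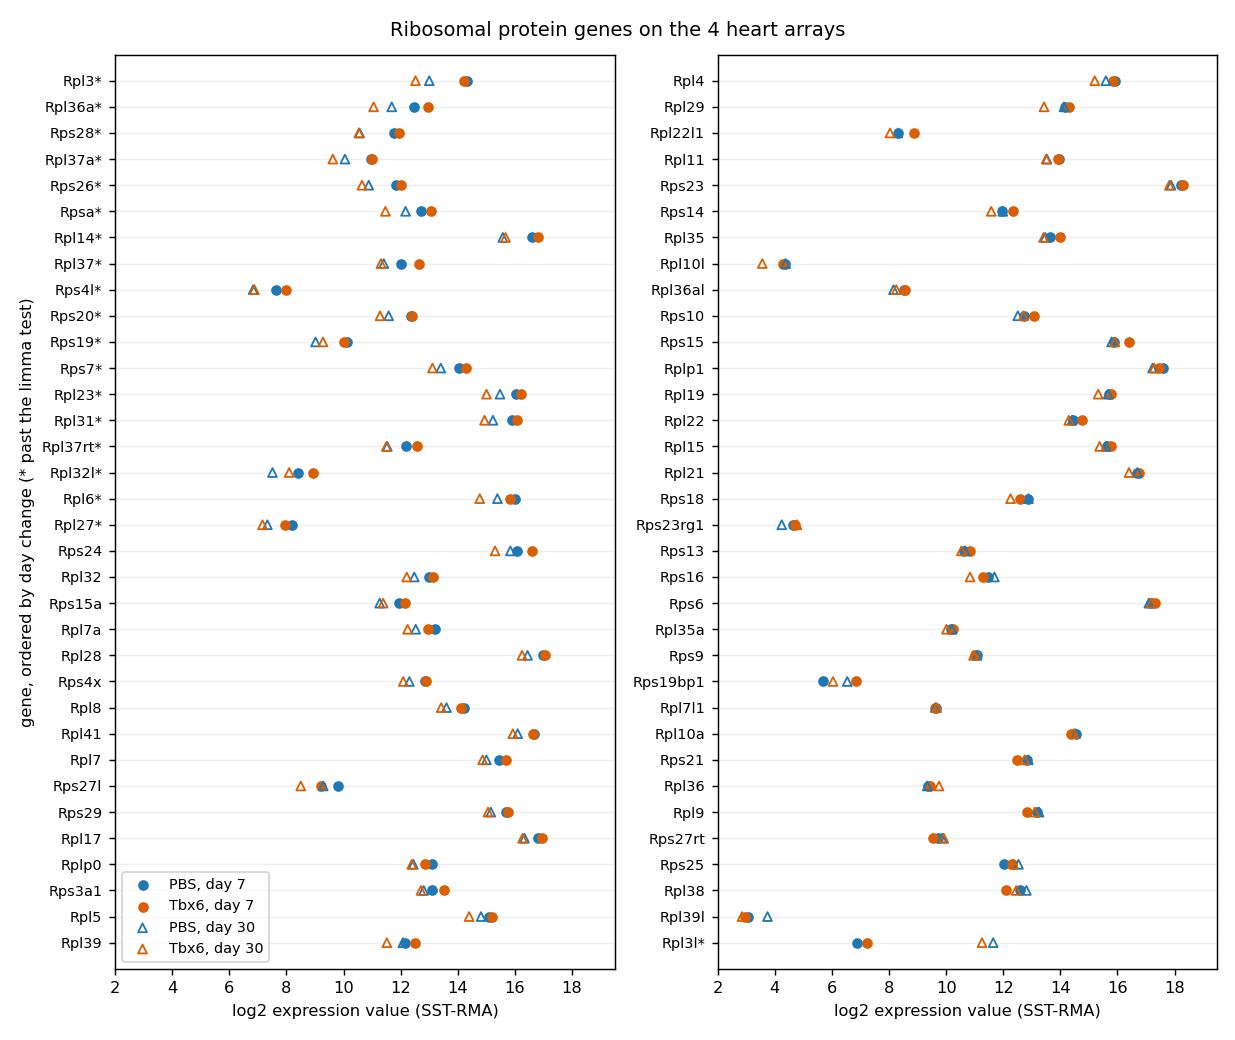
Log2 expression value (horizontal axis) of each of the 68 members on the 4 arrays, in order of the day change from Rpl3 to Rpl3l; circles are day 7, open triangles day 30, blue PBS and orange Tbx6, and an asterisk marks the 19 genes past the limma test. In most rows the triangles lie to the left of the circles, while Rpl3l, in the last row, has both triangles near 11 and both circles near 7.

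Rpl3, a core protein of the large subunit near the site of peptide bond formation, had the lowest day change of the family. With PBS it read 14.34 at day 7 and 13.00 at day 30, and with Tbx6 14.21 and 12.52. Both readings of day 30 lay below both of day 7. Rpl3 fell by 1.51 on the log2 scale (SE 0.25, adjusted p = 0.00345 by limma), a decrease of 2.85-fold. It passed the test under all 11 other fits that were run, with adjusted p from 0.000227 to 0.0357, and ranked 304 among the 9753 tested genes from the lowest change upward.

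Rpl3l, the striated muscle paralogue, went the other way. With PBS it read 6.89 at day 7, above background, and 11.65 at day 30, and with Tbx6 7.24 and 11.26. The days did not overlap, and the day change was 4.76 with PBS and 4.02 with Tbx6. Rpl3l rose by 4.39 on the log2 scale (SE 0.27, adjusted p = 4.42e-05 by limma), which is 20.9-fold and rank 12 among the 9753 tested genes from the highest change downward. It passed the test under the same 11 fits, with adjusted p from 1.38e-06 to 0.00127. The change of Rpl3l exceeded that of Rpl3 by 6.09 log2 units between the PBS arrays and by 5.71 between the Tbx6 arrays. This difference of changes was not tested. The 10 fast skeletal muscle markers, among them Myh4 and Actn3, were at background on all 4 arrays, with summed linear levels of 155 to 192 at day 7 and 203 to 207 at day 30.

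**Figure D2:**
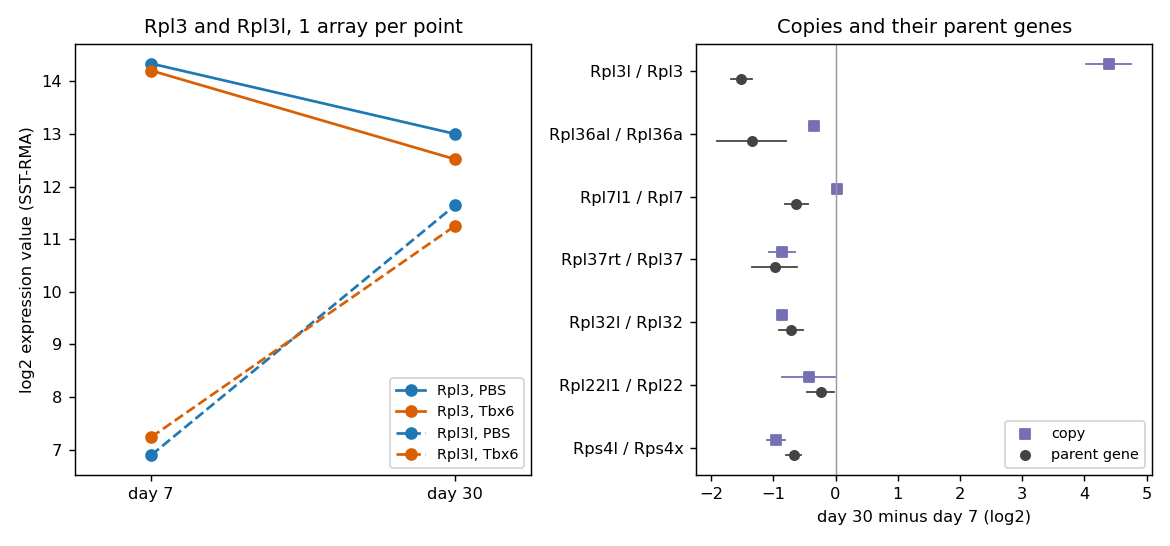
Left, log2 expression values of Rpl3 (solid lines) and Rpl3l (dashed lines) at day 7 and day 30, 1 array per point, blue PBS and orange Tbx6; heights of different genes are not comparable. Right, day 30 minus day 7 for 7 copies (squares) and their parent genes (circles), the marker being the mean of both injections and the line the span between the PBS and the Tbx6 arrays; the Rpl3l square stands at 4.39 and the Rpl3 circle at -1.51, while the other copies lie between -0.96 and 0.02.

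The other copies did not repeat the rise of Rpl3l. Rpl7l1, a paralogue of Rpl7, differed by 0.02 between the days, beside -0.63 for Rpl7, and neither passed the test. Rpl36al, which encodes nearly the same protein as Rpl36a, differed by -0.34 (adjusted p = 0.331 by limma) while Rpl36a fell. Rpl22l1, whose message is known to be repressed by the Rpl22 protein, differed by -0.43 and Rpl22 by -0.24. Among the copies closest in name to a parent, Rpl37rt fell by 0.87 beside Rpl37 (0.98 lower), Rps4l, which RefSeq lists as a transcribed pseudogene, fell by 0.96 beside a difference of -0.67 for Rps4x, and Rpl32l fell by 0.86 beside -0.72 for Rpl32. Such copies may share probes with the parents, so these are not independent observations. Rps27l, a p53-induced paralogue of Rps27, differed by -0.61 and Rps27rt by 0.26, and neither passed the test. No change can be given for Rpl10l, Rpl39l and Rps23rg1, which were at background on every array, while Rpl39 differed by -0.53 and Rps23 by -0.41.

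In the large subunit 9 of 31 genes fell and 0 rose (12.1% and 14.2% of all tested genes), with a median change of -0.56. Rpl36a, which lies where spent transfer RNA leaves the ribosome, read 12.48 and 12.96 at day 7 after PBS and Tbx6 and 11.69 and 11.05 at day 30. The days did not overlap, and the decrease of 1.35 (SE 0.31, adjusted p = 0.0143 by limma) was larger between the Tbx6 arrays (-1.91) than between the PBS arrays (-0.79). Rpl37a, a zinc finger protein of the large subunit, read 10.98 and 11.002 at day 7 and 10.05 and 9.62 at day 30, and fell by 1.15 (SE 0.25). Rpl14 stood at 16.59 and 16.80 at day 7 and at 15.58 and 15.67 at day 30, and its decrease of 1.07 (SE 0.24) differed little between injections. Rpl37 fell by 0.98, and the smaller decreases were those of Rpl23, Rpl31, Rpl6 and Rpl27 (0.83 to 0.90). Rpl23 is known, with Rpl5 and Rpl11, for binding the p53 regulator Mdm2. Rpl5 (-0.55) and Rpl11 (-0.43) did not pass the test. Their readings of day 30 lay below those of day 7, a pattern of 33.5% of all tested genes. Rpl38, needed in the embryo for translation of Hox messages, had a positive difference of 0.28 with overlapping days, and Rpl9 (0.17), Rpl36 (0.15) and Rpl10a (0.03) were the other large-subunit genes above 0.

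The small subunit gave 6 of 22 genes that fell and 0 that rose, beside the same 12.1% and 14.2%, with a median of -0.48. Rps28 read 11.77 and 11.95 at day 7 and 10.56 and 10.54 at day 30. Its days stood well apart, and it fell by 1.31 (SE 0.24, adjusted p = 0.00592 by limma). Rps26, which touches the message at the exit side of the small subunit, read 11.83 and 11.997 at day 7 and 10.88 and 10.65 at day 30, a fall of 1.15. Rpsa, also known as a laminin receptor, read 12.71 and 13.07 at day 7 and 12.17 and 11.47 at day 30, and fell by 1.07 (SE 0.30, adjusted p = 0.032 by limma). Its decrease was -0.54 between the PBS arrays and -1.61 between the Tbx6 arrays. Rps20 (0.96), Rps19, which is mutated in Diamond-Blackfan anaemia (0.91), and Rps7 (0.90) completed the genes that fell. Rps6, the protein phosphorylated by kinases downstream of mTOR, read 17.17 and 17.33 at day 7 and 17.10 and 17.17 at day 30, a difference of -0.11 that did not pass the test. Rps9 (-0.02) hardly differed between the days, and Rps25 (0.27), known for a role in initiation at internal entry sites, and Rps21 (0.14) were the small-subunit genes with positive differences.

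The stalk recruits elongation factors to the large subunit. Rplp0 differed by -0.56 (adjusted p = 0.125 by limma) and Rplp1 by -0.26. For both genes the arrays of day 30 lay below those of day 7, as for 33.5% of all tested genes, and neither passed the test. Across the 64 tested members other than Rpl3l the day changes of the PBS pair and the Tbx6 pair, which share no array, were correlated (Pearson's r 0.68, Spearman's rho 0.723), beside r 0.785 over all tested genes. Between the day change and the mean level r was -0.0212 and rho 0.0215 over the same 64 genes. Members are not independent, since all were read on the same arrays.

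Of the 18 members that fell, Rpl3 and Rps28 passed the test under every fit that was run, including each that left out 1 array. Rpl36a, Rpl37a and Rps26 missed it only without the Tbx6 array of day 30, with adjusted p by limma of 0.0852, 0.0772 and 0.0634, and the 13 others missed it without that array too. With all genes tested and no filter on low values 8 members fell (11.8%, against 5.33% of all tested genes). With a prior variance that follows the level 31 fell (47.7%, against 13.4%), and after quantile normalisation 24 (36.9%, against 11.2%), and in both cases these held all 18.

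The other genes of the translation apparatus had medians nearer to 0, and their counts stand beside 12.1% of all tested genes that fell and 14.2% that rose. Of 37 measured genes for ribosome biogenesis 34 were tested, 0 fell and 3 rose, with a median of -0.02. Pno1, a factor of small-subunit assembly, rose by 1.86 (SE 0.26), and Polr1a and Polr1c, subunits of RNA polymerase I, rose by 1.08 and 0.89. The nucleolar genes Fbl (-0.69), Ncl (-0.44) and Npm1 (-0.29) did not pass the test. Among 28 tested initiation factors 3 fell and 3 rose, with a median of 0.00. Eif2b4 and Eif2b5, counted among them, were at background on every array. The poly(A)-binding protein gene Pabpc1, itself a TOP message, fell by 1.22, Eif4g3 by 0.87 and Eif2s2 by 0.80, whereas Eif2s3x rose by 1.84, the cap-binding factor Eif4e by 0.88 and Eif5b by 0.78. Of 9 tested elongation factor genes 0 fell and 2 rose. Eef1a2, the form of elongation factor 1A that takes over in mature muscle, read 13.48 and 14.13 at day 7 and 14.99 and 15.02 at day 30, and rose 2.30-fold (adjusted p = 0.0123 by limma), though not past the test when either PBS array or the Tbx6 array of day 30 was left out (adjusted p up to 0.0753). Its widespread counterpart Eef1a1 differed by -0.67 (adjusted p = 0.0846) and Eef2 by -0.70, neither past the test, and Eef2k, the kinase that inhibits Eef2, rose by 0.88. Of the initiation, elongation and biogenesis genes that passed, Pno1, Pabpc1 and Eif2s3x did so in every fit that left out 1 array, and the others missed the threshold in at least 1 of them.

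**Figure D3:**
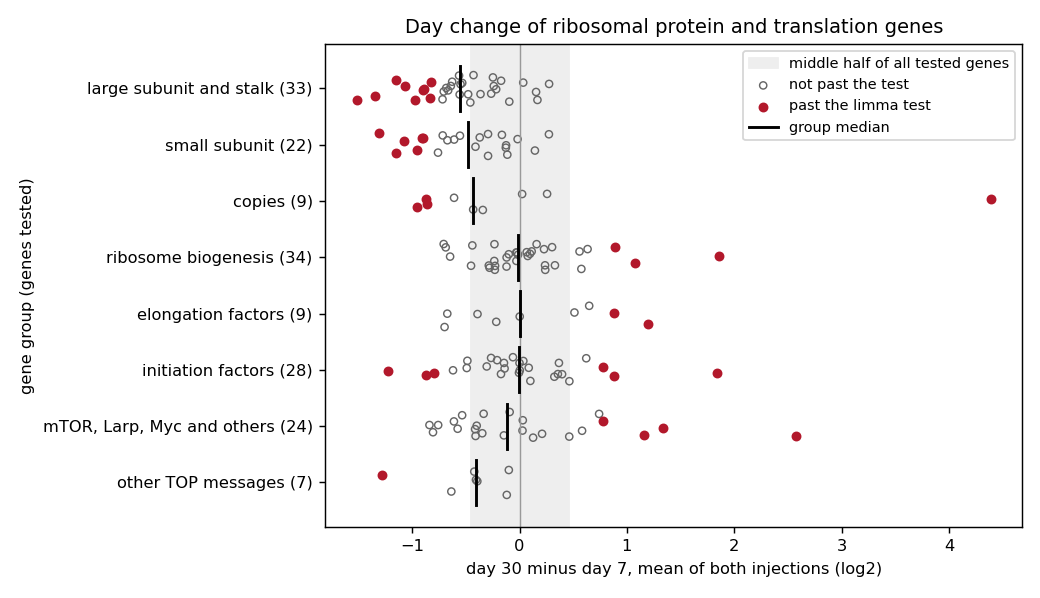
Day 30 minus day 7 (log2, mean of both injections) of the tested genes of each group, the number tested in brackets; red points passed the limma test, black bars are group medians and the grey band lies between the quartiles of all 9753 tested genes. The medians of the large subunit with the stalk (-0.56) and of the small subunit (-0.48) lie to the left of the band, which starts at -0.45, and Rpl3l is the single red point at 4.39.

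Genes that control the translation or transcription of ribosomal protein messages numbered 24 tested, with a median of -0.12. Of these 0 fell and 4 rose, beside 12.1% of all tested genes that fell and 14.2% that rose, so the rises were near the background share. The 4 that rose are named here for their values. They were Sesn1 (2.57) and Tsc2 (1.34), both inhibitors of mTOR complex 1, Rheb (0.78), its activator, and the RNA-binding protein gene Larp4 (1.16). Mtor (-0.41), Larp1 (0.58), which binds TOP messages, and Myc (-0.81, with 2 of 4 readings at background) did not pass the test. Sesn1 and Tsc2 passed with any 1 array left out, and Rheb and Larp4 did not. Of the other TOP messages and ribosome-bound proteins 7 were tested, and Vim, the intermediate filament of fibroblasts and endothelium, fell by 1.28. The rest did not pass the test, among them Tpt1 (-0.42), Btf3 (-0.41) and Fau (-0.63), which encodes a ribosomal protein of the small subunit fused to a ubiquitin-like protein. The median of the 7 was -0.41.

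Markers of several cell types moved between the same days, where 12.1% of all tested genes fell and 14.2% rose. All 9 heart muscle markers were tested and 0 passed, with a median change of 0.14. Among them Actc1 (19.70) and Pln (19.83) read the same on every array. Both lay near the highest value in the table, which left little room for a rise. Of 9 measured markers of cycling cells all 5 tested fell. The summed linear level of the 9 was 3296 to 3526 at day 7 and 208 to 297 at day 30, with Cdk1, Aurkb and Bub1 at background on all arrays. Neither day 30 reading of Ccna2 (3.80 after PBS, 3.74 after Tbx6) or Ube2c (3.51 and 2.98) exceeded background. The same held for the PBS reading of Mki67 (5.29) and Ccnb2 (4.67) at day 30. Ccna2 and Ube2c passed the filter on low values through their day 7 readings alone, so the filter favoured a fall for them. Of the 6 measured fibroblast markers 5 fell (summed level 565182 to 581880, then 370657 to 372860). Most of that sum was Dcn, the marker that did not pass the test (-0.08). Of the 6 endothelial markers 2 fell (98439 to 106201, then 53155 to 57254). Of 5 measured macrophage markers 4 rose (708 to 760, then 2434 to 3151). Of 7 lymphocyte markers 6 were at background on every array, and the erythroid gene Alas2 fell by 2.09. The endothelial genes Kdr and Cdh5 and Alas2 missed the threshold when either array of day 30 was left out. Of 5 adipocyte markers 4 were tested and 0 passed, and they differed between arrays: the day change of Ucp1 was -6.23 with PBS and 0.74 with Tbx6, and that of Adipoq, a hormone of fat cells, -0.49 and 3.75. Plin1 was at background on every array, and the summed level, most of it Fabp4, was 137422 to 144914 at day 7 and 90389 to 107759 at day 30. The part of these markers in the decrease of the ribosomal protein genes was not tested, and in RNA of whole hearts fewer cells of a type cannot be told apart from less RNA per cell.

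The comparison of Tbx6 with PBS rests on 1 array per side at each day, so the differences have no test and no replicate check. At day 7 the median difference over the 65 tested members was 0.11 (all tested genes -0.02), with 44 members higher after Tbx6 and 21 of 65 lower (32.3%, against 52.3% of tested genes). At day 30 it was -0.17 (all tested genes 0.01), and 52 of 65 members read lower (80.0%, against 48.9% of tested genes). A difference of at least 1.5-fold was found at day 7 for 2 members higher and 0 lower, below the background of 7.23% and 8.41% of tested genes. At day 30 it was found for 0 higher and 7 lower (background 7.13% and 6.06%). Of the 65 members 35 (53.8%) were higher after Tbx6 at day 7 and lower at day 30, a pattern of 23.7% of all tested genes. The adipocyte markers also differed in opposite directions on the days, with a median over the 4 tested of -1.44 at day 7 and 2.18 at day 30 (Adipoq -1.91 and 2.33, Ucp1 -4.32 and 2.65, Cidec -0.96 and 2.02), and their part in the differences of the members was not tested. The values of the members restate, from the same arrays, the larger day change after Tbx6 than after PBS.

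Rpl37 and Rps19bp1 were the members at least 1.5-fold higher at day 7. Rpl37 read 12.02 after PBS and 12.65 after Tbx6, a difference of 0.63, and differed by -0.10 at day 30. Rps19bp1, at background on the PBS array of day 7, was higher by at least 1.04. Rpl22l1 (0.58), Rpl32l (0.51) and Rps24 (0.51) followed, and the lowest differences at day 7 were those of Rps27l (-0.57), Rpl38 (-0.50), Rpl9 (-0.35), Rps21 (-0.34) and Rps18 (-0.30). At day 30 Rps16, a protein of the small subunit's head, read 11.69 after PBS and 10.84 after Tbx6, a difference of -0.85. Rps27l (-0.79), Rpsa (-0.71), Rpl29 (-0.70), Rpl36a (-0.63), Rps18 (-0.62) and Rpl6 (-0.62) were the others at least 1.5-fold lower. On the upper side stood Rpl32l (0.58), Rpl36 (0.41), Rps19 (0.26) and Rps10 (0.20).

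Rps27l had the lowest mean difference over both days. It read 9.79 and 9.22 at day 7 and 9.29 and 8.50 at day 30 after PBS and Tbx6. Over both days its difference was -0.68 (SE 0.24, unadjusted p = 0.0225, adjusted p = 1 by limma). It was the 1 member with an unadjusted p under 0.05 for injection, where 421 of the 9753 tested genes (4.32%) had one, and by limma 0 members and 0.0% of tested genes passed the adjusted threshold. Rpl3l differed by 0.34 at day 7 and by -0.39 at day 30, and Rpl3 by -0.13 and -0.48. Across the 64 tested members other than Rpl3l the differences of the days, which share no array, gave r 0.108 and rho 0.101. Over all tested genes r was -0.0384.

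**Figure D4:**
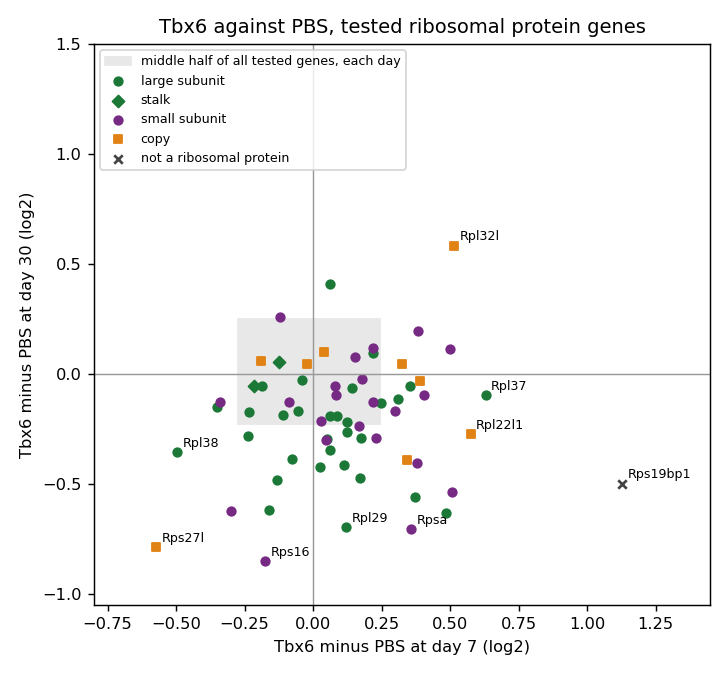
Tbx6 minus PBS (log2) at day 7 (horizontal axis) against day 30 (vertical axis) for the 65 tested members, 1 array per side; green is the large subunit and stalk, purple the small subunit, orange copies, and the grey box the range between the quartiles of all tested genes on each axis. Most points lie below 0 on the vertical axis, with Rps16 lowest at -0.85, and Rps27l at the lower left.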

How the data were processed

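Per the labels, biotin-labelled cDNA of heart RNA was hybridised to mouse Clariom S arrays, and the authors deposited log2 values made with SST-RMA in Affymetrix Expression Console 1.4. The base of the logarithm is inferred from how far the values reach. Array number, not depth, limits precision. Of 22206 transcript probe sets, 19572 carried 1 symbol in the platform annotation, 0 several and 2634 none, and all 19572 matched a RefSeq gene table (GRCm38.p6). For 55 genes with several probe sets the one with the highest mean was kept, and every member had 1.

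Genes with a mean at or above the median gene (9753) were fitted with limma 3.58.1 (R 4.3.3, lmFit, eBayes, two-sided), with injection and day as terms and 1 residual degree of freedom. SEs and p-values therefore rest mostly on variance borrowed from other genes. The script was tested on simulated data, with noise drawn independently for each array from the fit's own variances and no spread between hearts. A change was given to 100 genes in each direction, fewer than passed in the data, so the shares may not carry over. The script called 72% of genes with a simulated log2 change of 1, 100% with -2 and 0.157% with 0 (15 of 9553 genes). A gene that missed the test may therefore still have changed. Summaries used Python 3.11.15 with pandas 2.3.3. Alternatives covered normalisation, centring, filter, model, prior and members. A further fit averaged the probe sets of a gene, which left the values of the members as they were, since each had 1. Leaving out each array in turn, with day as the only term, was added after seeing the data. Members and lists were chosen with earlier results of these data known. Named genes were Rpl3 and Rpl3l, copies beside parents, stalk genes, Rpsa, up to 10 members per direction past the test, the 5 highest and lowest members per injection difference and up to 4 genes per direction of each list; others were picked after their values were seen.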

Additional observations from a re-analysis of the deposited data

Results flagged for a closer look

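The median difference between Tbx6 and PBS over the tested members had opposite signs at the 2 days, 0.11 at day 7 and -0.17 at day 30. The same held for 4 members above background on all arrays with at least 1 difference of 1.5-fold. Rpl37 differed by 0.63 and -0.10, Rpsa by 0.36 and -0.71, Rpl36a by 0.48 and -0.63, and Rpl29 by 0.12 and -0.70. With 1 array per side the difference between days was not tested.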

How the results depend on the processing

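Rpl3 and Rpl3l kept their direction and passed the test under all 11 other fits. The median day change over the members stayed below 0 in every alternative, from -0.72 (Tbx6 arrays alone) to -0.35 (PBS arrays alone). The 18 members that fell (27.7%, against 12.1% of all tested genes) became 8 with no filter (11.8%, against 5.33%) and 31 with a trend in the prior (47.7%, against 13.4%). They became 2 to 14 when 1 array was left out: below the share of all tested genes without the Tbx6 array of day 30 (3.08%, against 5.69%) and near it without that of day 7 (12.3%, against 10.1%). In those fits 555 to 981 tested genes fell and 693 to 1114 rose. The 1 member that rose became 0 without copies, since Rpl3l is a copy. Members at least 1.5-fold higher at day 7 (2) became 1 without copies and Rps19bp1, 18 at 1.2-fold and 1 at 2-fold, and those lower (0) became 5 at 1.2-fold. At day 30 those higher (0) became 2 and those lower (7) became 26 at 1.2-fold, and 0 at 2-fold. No other count of members or tested genes moved by over 1.5 times. Leaving out members at the highest deposited value removed 0 genes. Of 67 named genes 0 reversed a called direction, and of 45 past the test 45 kept the call after centring, 41 after quantile normalisation and 22 without the Tbx6 array of day 30. No paired analysis was possible because each group has 1 array and no replicate numbers. Changes of genes near background are bounded by the background signal.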

Other observations

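The genes that the symbol rule left out gave these values. Rpl31-ps12, which RefSeq lists as protein-coding, read 13.90 and 13.74 at day 7 and 13.61 and 13.38 at day 30 after PBS and Tbx6, a day change of -0.33 beside the fall of 0.89 for Rpl31, and did not pass the test. Of the Rps6k kinases, Rps6ka3 (-0.40), Rps6kb2 (-0.15) and Rps6ka5 (0.02) were tested and did not pass, and Rps6ka6, Rps6kc1 and Rps6kl1 were at background on every array.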
